A study of Drosophila melanogaster with 6 samples.

Results

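Transcripts of 9 genes of the Notch, EGFR and JAK/STAT pathways were followed in Drosophila melanogaster ovaries with and without Gcna. The genes were N, Dl, Egfr, kek1, rho, aos, dome, hop and Stat92E. They were chosen by name, as the rows of the deposited table with these symbols, and all 9 were found among its 13216 rows of genes and repeats. The GCNA null flies (3 libraries) carried a null allele of Gcna that had been made by CRISPR with a knock-in construct and then outcrossed to the stock wBerlin over 10 generations. The wild type flies (3 libraries) were wBerlin itself. Females of both groups were picked at an age of 0 to 2 days and kept at 25 °C. They had wet yeast for 24 hours, so that their ovaries were taken at 1 to 3 days. Total RNA depleted of ribosomal RNA was sequenced in stranded libraries. How many flies stand behind a library is not given, and any founder chromosome kept through the outcrossing differs along with Gcna and cannot be told apart from its loss.

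These pathways carry the signals that shape the follicular epithelium, the layer of somatic cells around each egg chamber. Notch is a receptor that is cut when Delta on a neighbouring cell binds it, and its freed part enters the nucleus and acts with Su(H); Delta from the germline sends follicle cells from mitosis into the endocycle. EGFR is a receptor tyrosine kinase that works through Ras and MAP kinase; in the ovary, Gurken from the oocyte activates it in the follicle cells beside the oocyte and so sets the axes of the egg. In JAK/STAT signalling, Unpaired ligands from the polar cells bind Domeless, the kinase Hopscotch is activated, and Stat92E enters the nucleus, which sets terminal follicle cell fates and the migration of the border cells.

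The libraries held 38401723 to 55758180 reads that fell on rows of the table. The targeted gene, listed as CG14814, had 493, 428 and 520.4 normalized counts in GCNA null libraries, against 20676, 18292 and 19581 in the wild type libraries, as the labels say. Replicates 1 and 2 of GCNA null were near-copies. Their reads gave a chi-square of 1.66 per degree of freedom, where a value of 1 is pure counting noise and no other pair of replicates had less than 26.9. They were counted as 1 sample, their mean, so that means ± SD below are over 2 GCNA null and 3 wild type samples. Nothing in the labels ties the samples of a group to separate flies, so p-values measure only how these samples vary, and that variation may be technical. Defining markers of the follicle cells and the germline were present in each library, and the labelled tissue fits them. In RNA from whole ovaries, fewer cells of a type and less RNA per cell cannot be told apart.

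Of the 9 genes, kek1 was higher in GCNA null ovaries and no other passed the test. That is 1 of 9, where 6.37% of the 10132 rows tested passed in either direction, 4.25% as higher and 2.11% as lower. The test was limma on log2 of the normalized count plus 1. It was two-sided, and a call needed a p under 0.05 after Benjamini-Hochberg adjustment over all rows. Differences are given as GCNA null minus wild type on that log2 scale. N had the next smallest adjusted p, 0.052, on the lower side. The values of the 3 libraries of each group did not overlap for N, kek1 and dome, 3 of 9 genes, and 38.9% of all tested rows showed such a separation (19.6% with GCNA null above and 19.3% with GCNA null below). With all 6 libraries taken as separate samples, N and dome were also called lower, under a fit that called 16.6% of rows. DESeq2 on the recovered reads also called N, and it called 12.8% of rows.

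**Figure D1:**
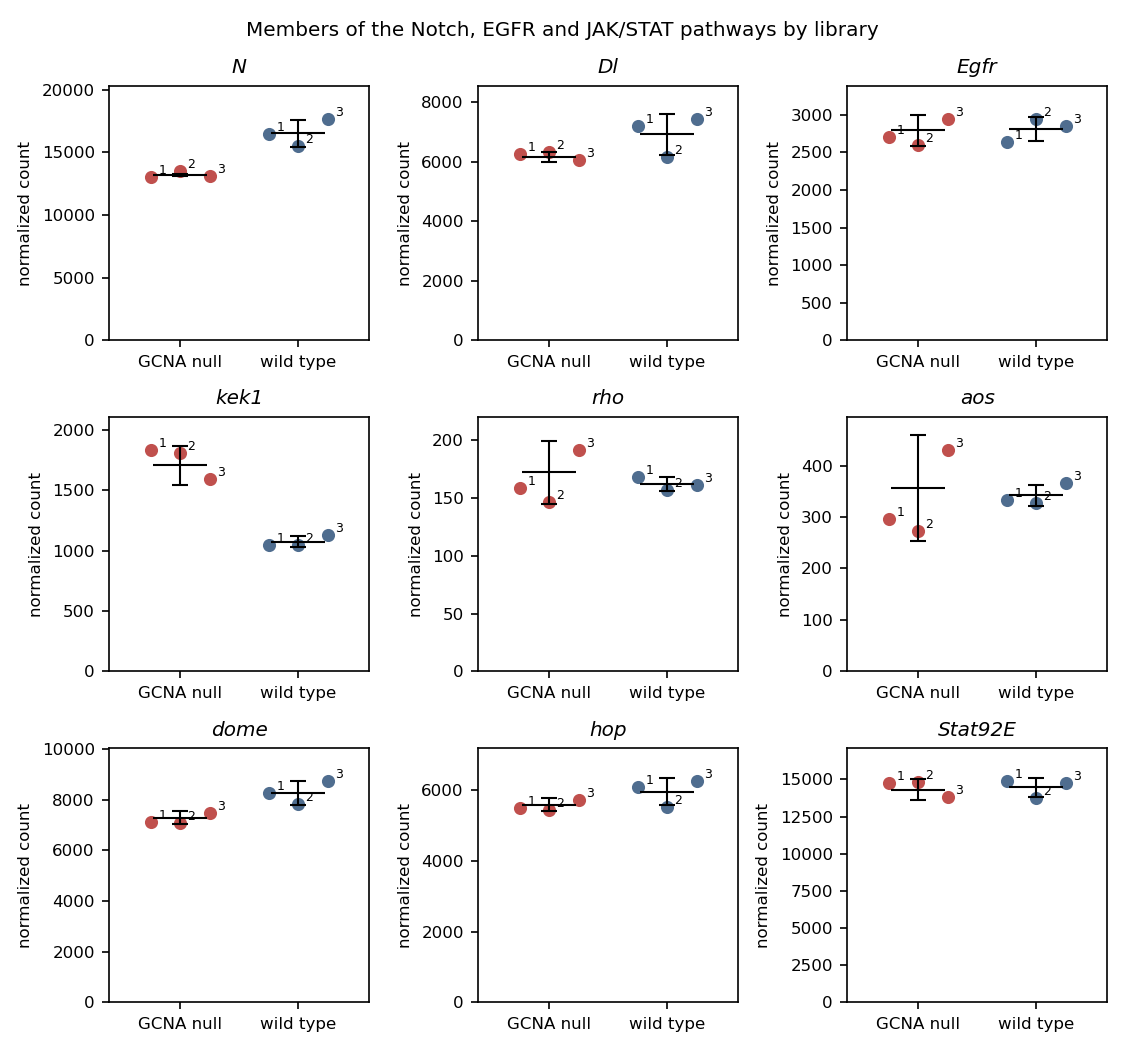
Normalized count (vertical axis, from 0) of each of the 9 genes in the GCNA null (left, red) and wild type (right, blue) libraries; points are libraries with their replicate number, and bars show the mean ± SD with GCNA null replicates 1 and 2 as 1 sample. kek1 lies between 1591 and 1833 in the GCNA null libraries and between 1046 and 1133.5 in the wild type libraries, and aos and rho are highest in GCNA null replicate 3.

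Set per kilobase of annotated exon, so that genes of different length can be compared, the level of the 9 genes spanned from Stat92E down to rho in the same order in both groups. Stat92E averaged 2746 ± 131 normalized counts per kb in GCNA null ovaries and 2774 ± 122 in wild type ovaries. At the low end, rho averaged 57.3 ± 9.08 per kb in GCNA null and 54.0 ± 1.99 in wild type ovaries. Between them came dome, N, Dl, hop, Egfr, kek1 and aos. In the GCNA null libraries the ranges of neighbours in this order did not overlap. In the wild type libraries dome (1602 to 1790) overlapped N (1528 to 1739), and Dl (1165 to 1407) overlapped hop (1094 to 1239), so those pairs had no order beyond their spread. Among the receptors, Egfr stood well under dome and N in both groups, at 402 ± 29.4 per kb in GCNA null and 405 ± 23.0 in wild type ovaries. These levels per kb take all annotated exons as the length of a gene and would shift if the ovary used shorter isoforms.

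**Figure D2:**
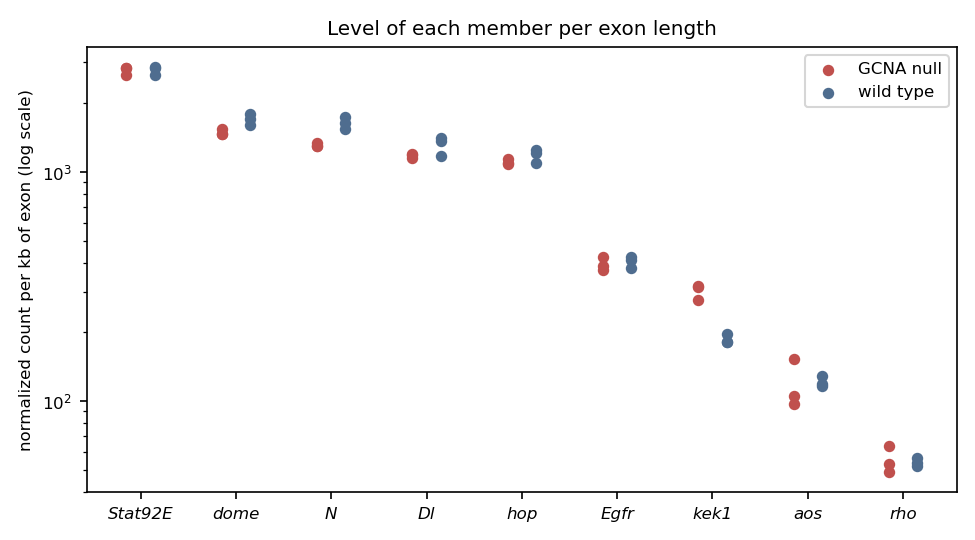
Normalized count per kb of exon (log axis) of the 9 genes, sorted by their wild type mean; red points to the left are GCNA null libraries and blue points to the right are wild type libraries. Both groups run from Stat92E, with means of 2746 in GCNA null and 2774 in wild type, to rho, between 48.9 and 63.7 in GCNA null and between 52.2 and 56.1 in wild type libraries.

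Among the Notch pathway genes, the receptor had a lower mean in GCNA null ovaries but missed the threshold, and the libraries of its ligand overlapped between the groups. N, X-linked at 3134870 to 3172221 (plus strand; this and other positions are on BDGP6, the dm6 assembly), is a protein-coding gene with no overlapping gene, 1.27 Mb from Gcna. Its normalized count was 13069, 13481 and 13119.5 in the GCNA null libraries, against 16475, 15506 and 17651 in the wild type libraries. Each GCNA null library was thus below each wild type library. The means were 13197 ± 110.0 in GCNA null and 16544 ± 1074 in wild type ovaries, a log2 difference of -0.32 (95% interval -0.50 to -0.15, limma adjusted p = 0.052). The call turned on the fit: N passed with 5 of the 12 other settings that kept all libraries, and also without GCNA null replicate 2 (adjusted p = 0.0458) or wild type replicate 2 (0.0499). Over all 19 other settings its log2 difference was -0.37 to -0.28 and its adjusted p 0.000298 to 0.227.

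Dl, the ligand Delta, lies on 3R at 19302731 to 19326217 (minus strand), with no overlapping gene. It had 6253, 6330.0 and 6044 normalized counts in GCNA null libraries and 7201, 6147 and 7428 in the wild type libraries. Wild type replicate 2 fell within the range of the GCNA null libraries, and the other wild type libraries lay above it. The log2 difference was -0.16 (95% interval -0.38 to 0.05, limma adjusted p = 0.33).

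The rest of the Notch pathway was described by a list of 41 other genes, of which 40 were in the table and 33 passed the filter on low values. Of these 33, 1 was higher and none lower, or 3.03% against 6.37% of all rows, and their median log2 difference was 0.03 (all rows, -0.0005). The higher gene was peb, which encodes Hindsight, a zinc finger factor switched on in follicle cells when Notch acts. peb had 3648, 3663 and 3349 normalized counts in GCNA null libraries and 2641, 2857 and 2742 in the wild type libraries, with no overlap (log2 difference 0.35, 95% interval 0.19 to 0.51, limma adjusted p = 0.033). It lies on the X chromosome 2.75 Mb from Gcna. The call was lost when wild type replicate 1, 2 or 3 was left out, and when GCNA null replicates 1 and 2 were left out together (log2 differences 0.29 to 0.41 over all settings, adjusted p up to 0.196).

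Other follicle cell targets of Notch did not pass. ct, a homeodomain factor that Notch turns off in follicle cells, had 1273, 1236 and 866 normalized counts in GCNA null libraries and 875, 884 and 881 in the wild type libraries. Replicates 1 and 2 of GCNA null were thus above the wild type range and replicate 3 below it. stg, the Cdc25 phosphatase of mitotic entry, had a log2 difference of -0.16, and fzr, an activator of the anaphase-promoting complex in endocycling cells, of 0.06. The E(spl) and Brd complex genes are direct targets of Notch in many tissues and were scarce here: 7 of the 12 in the table were under the filter, at 0 to 7.6 normalized counts. Of the 5 tested none passed. All 5 had positive log2 differences, from 0.24 to 0.60, and 5057 of the 10132 tested rows were positive. In GCNA null replicate 3, E(spl)m7-HLH, E(spl)malpha-BFM and E(spl)m2-BFM had 12.1, 10.1 and 9.1 normalized counts. These were below their wild type means of 15.97, 10.77 and 9.95, while E(spl)m3-HLH and E(spl)mbeta-HLH were above theirs. E(spl)m3-HLH, the most abundant, had 413, 414 and 219 normalized counts in GCNA null libraries and 169, 199.8 and 232 in the wild type libraries, a log2 difference of 0.60 (95% interval -0.09 to 1.28, limma adjusted p = 0.27). For this gene, GCNA null replicates 1 and 2 alone stood above the wild type libraries. E(spl)mbeta-HLH had 103.5, 120.7 and 86.6 in GCNA null libraries and 48.6, 68.7 and 82.8 in the wild type libraries, without overlap. Its log2 difference was 0.59 (95% interval -0.09 to 1.27, limma adjusted p = 0.27).

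Genes that cut, sugar-modify or ubiquitylate Notch and its ligands did not pass the test. None of the 6 cleavage genes passed; kuz, the ADAM metalloprotease, had a log2 difference of 0.27, and nct, the nicastrin subunit of gamma-secretase, of -0.14. None of the 6 genes of ligand uptake and ubiquitin ligation passed. neur, an E3 ligase for Delta, had 3593, 3644 and 3588 normalized counts in GCNA null libraries and 3174, 2856 and 3337 in the wild type libraries. The groups did not overlap (log2 difference 0.21, limma adjusted p = 0.17), and 38.8% of the exon length of neur overlaps an antisense RNA, whose reads could not be told apart if the counting ignored strand. numb, which inhibits Notch, had a log2 difference of -0.20 (adjusted p = 0.099). fng, the glycosyltransferase Fringe, and Su(H), the DNA-binding partner of Notch, had 95% intervals of the log2 difference from -0.20 to 0.18 and from -0.17 to 0.17, with overlapping groups.

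EGFR itself did not differ beyond its spread, while its inhibitor kek1 was 1.58 times as high in GCNA null ovaries (95% interval 1.37 to 1.83). Egfr lies on 2R at 21522420 to 21559977 (plus strand), and 5 other genes lie within or across its span but share no exon sequence with it. It had 2704, 2599.7 and 2940.2 normalized counts in GCNA null libraries and 2632, 2942 and 2857 in the wild type libraries. The ranges of the groups nearly coincided, with a log2 difference of -0.01 (95% interval -0.19 to 0.18, limma adjusted p = 0.97).

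kek1 encodes Kekkon-1, a transmembrane protein with leucine-rich repeats and an immunoglobulin domain that binds EGFR and dampens it, and whose transcription in follicle cells is itself raised by EGFR activity. It lies on 2L at 12817000 to 12822787 (minus strand), with no overlapping gene. It had 1833, 1814 and 1591 normalized counts in GCNA null libraries, against 1050.1, 1046 and 1133.5 in the wild type libraries. Every GCNA null library was above every wild type library, with replicates 1 and 2 above replicate 3. The means were 1707 ± 164 in GCNA null and 1076 ± 49.5 in wild type ovaries (log2 difference 0.66, SE 0.087, limma adjusted p = 0.01). The call held in 18 of the 19 other settings, with log2 differences of 0.56 to 0.76. It was lost when GCNA null replicates 1 and 2 were left out together, where the log2 difference was 0.56 (adjusted p = 0.0738) and 1 GCNA null library stood against 3 of wild type.

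The genes rho and aos, which mark high EGFR activity in the dorsal follicle cells, differed more among the GCNA null libraries than between the groups. rho encodes Rhomboid, the membrane protease that releases EGFR ligands. It lies on 3L at 1463811 to 1468944 (plus strand), inside the span of Ptp61F but sharing no exon with it. rho had 159, 147 and 191 normalized counts in GCNA null libraries and 168, 156.5 and 161 in the wild type libraries. Replicate 3 of GCNA null was the highest of all 6 libraries and replicate 2 the lowest (log2 difference 0.08, 95% interval -0.32 to 0.47, limma adjusted p = 0.81). With 138 to 190.0 reads per library, counting error alone was up to 8.51% of a value of rho.

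aos encodes Argos, a secreted protein that binds the EGFR ligand Spitz and keeps it from the receptor. It lies on 3L at 16470386 to 16483650 (minus strand), with 1 other gene in its span and no shared exon sequence. aos had 296, 273 and 429.8 normalized counts in GCNA null libraries and 334, 328 and 365 in the wild type libraries. Replicates 1 and 2 of GCNA null were below the wild type range and replicate 3 was above it, at 1.51 times the mean of the other two. The log2 difference was 0.03 (95% interval -0.42 to 0.49, limma adjusted p = 0.94), and its sign turned on the library: -0.27 without GCNA null replicate 3 and 0.33 without replicates 1 and 2.

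The sum of the markers of late follicle cells and aos were both lowest in GCNA null replicates 1 and 2, which count as 1 sample. The 14 chorion and vitelline membrane genes of the marker list, all in the table and none at 0 in every library, summed to 482437 and 458308 normalized counts in GCNA null replicates 1 and 2, and to 1213696 in replicate 3. Their sum was 1117262 to 1310683 in the wild type libraries. It was highest in wild type replicate 2, where aos was 328, against 334 in wild type replicate 1 and 365 in replicate 3. Counting error alone was up to 6.24% of a value of aos. Singly, each of the 14 genes was below the wild type libraries in GCNA null replicates 1 and 2. In GCNA null replicate 3, Cp15, Cp16 and Cp18 were above the wild type range. Vm26Aa, Vm26Ac and Vm34Ca were below it there, and the others were within it. None of the 14 passed the test. The 10 general follicle cell markers, also all present, summed to 25015 to 27195 in GCNA null and 24723 to 25861 in wild type libraries. Singly, tj, Fas3, peb and mirr had each GCNA null library above each wild type library, as had 19.6% of all tested rows. Of the 10, only peb passed the test. The others overlapped. In GCNA null replicates 1 and 2, Cad99C and bond were below the wild type range and ct, eya and br above it. What part the amount of late egg chambers has in the values of aos and rho was not tested. The hemocyte markers, 4 of 5 in the table and none at 0, summed to 2167, 2140 and 1033 in GCNA null replicates 1 to 3 and to 805 to 1198 in the wild type libraries, and the 9 muscle sheath markers, none at 0, to 57738, 56623 and 26602 in GCNA null and 30390 to 51412 in wild type libraries. The fat body markers, 4 of 4 in the table, summed to 3181, 3281 and 10359 in GCNA null and 5782 to 9608 in wild type libraries.

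The sum of the stalk and polar cell markers was above the wild type libraries in each GCNA null library, as kek1 was. Of all tested rows, 19.6% had each GCNA null library above each wild type library. These 3 genes (upd1, upd3 and neur, all in the table and none at 0) summed to 3693, 3746 and 3674 normalized counts in GCNA null and to 2922 to 3416 in wild type libraries, and neur made up most of the sum. Singly, upd3 and neur did not overlap between the groups, upd1 did, and none of the 3 passed the test. In GCNA null replicate 3, the follicle cell, stalk and polar, and fat body sums were above the wild type range and the muscle sum was below it, while the chorion and hemocyte sums were within it. The part of any of these cell types in the values of kek1 was not tested.

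**Figure D3:**
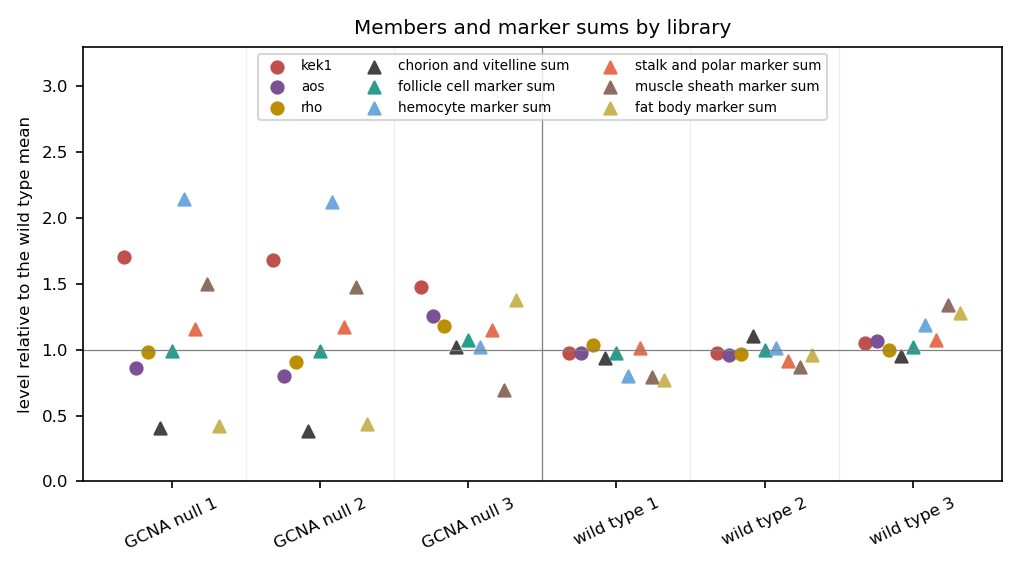
Level of kek1, aos and rho (circles) and of 6 marker sums (triangles) in each library, divided by the wild type mean (vertical axis, from 0); GCNA null libraries stand left of the line and wild type libraries right of it. The chorion and vitelline sum is low in GCNA null replicates 1 and 2, counted as 1 sample, where aos is low too. In wild type replicate 2 that sum is highest, and aos (328) is close to its value in wild type replicate 1 (334). Both kek1 and the stalk and polar sum, which is mostly neur, are above the wild type libraries in all 3 GCNA null libraries.

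The EGFR list held 42 other genes, of which 40 were in the table and 38 were tested. Of these none was higher and 1 was lower, 2.63% against 6.37% of all rows, and the median log2 difference was 0.03. The lower gene was rl, which encodes the MAP kinase of the pathway. rl had 7738, 7919 and 7264 normalized counts in GCNA null libraries and 9432, 11629.5 and 10742 in the wild type libraries, with no overlap (log2 difference -0.49, 95% interval -0.72 to -0.26, limma adjusted p = 0.036). It lies on 2R at 1071462 to 1125927 (plus strand), with no overlapping gene. The call of rl was lost with quantile normalization, without GCNA null replicate 3, without wild type replicate 2 or 3, and with GCNA null replicates 1 and 2 both left out (log2 differences -0.57 to -0.42 over all settings, adjusted p up to 0.142). The other 10 adaptors and kinases had log2 differences between -0.19 and 0.24, among them Ras85D at 0.01, phl (Raf) at -0.01 and Dsor1 (the MAP kinase kinase) at -0.09.

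No EGFR ligand passed. grk, whose product Gurken is the signal from the oocyte, had 1025, 1119 and 855 normalized counts in GCNA null libraries and 804, 862 and 1057 in the wild type libraries, with overlapping groups (log2 difference 0.09). spi, the ligand Spitz, had 2483, 2474 and 2167 in the GCNA null libraries and 2899, 2754 and 2713 in the wild type libraries. Those groups did not overlap, but the difference of -0.27 had a limma adjusted p of 0.10. vn and Krn, the other ligands, had log2 differences of 0.35 and 0.08. The transcription factor genes pnt, aop and cic at the end of the pathway had log2 differences of 0.11, 0.06 and -0.03.

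The feedback inhibitors other than kek1 did not pass. Sprouty (sty) had a log2 difference of 0.19 and Mkp3, a phosphatase of MAP kinase, of 0.01. Socs36E, given below with the JAK/STAT genes, had the largest of them, 0.52, and its groups did not overlap. Among target genes in the follicle cells, mirr, a homeodomain factor of the dorsal anterior cells, had a log2 difference of 0.11. pip, a sulfotransferase gene that EGFR keeps off on the dorsal side, had -0.20, and br, a zinc finger factor of the dorsal appendage cells, had 0.29. None of these 3 passed. kek2, a paralog of kek1, was scarce, with 87.4, 82.8 and 54.4 normalized counts in GCNA null libraries and 38.3, 24.3 and 31.6 in the wild type libraries. Its groups did not overlap either, but the log2 difference of 1.11 (95% interval 0.34 to 1.89) had an adjusted p of 0.10. kek5 and kek6, further paralogs, had log2 differences of 0.07 and -0.26.

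**Figure D4:**
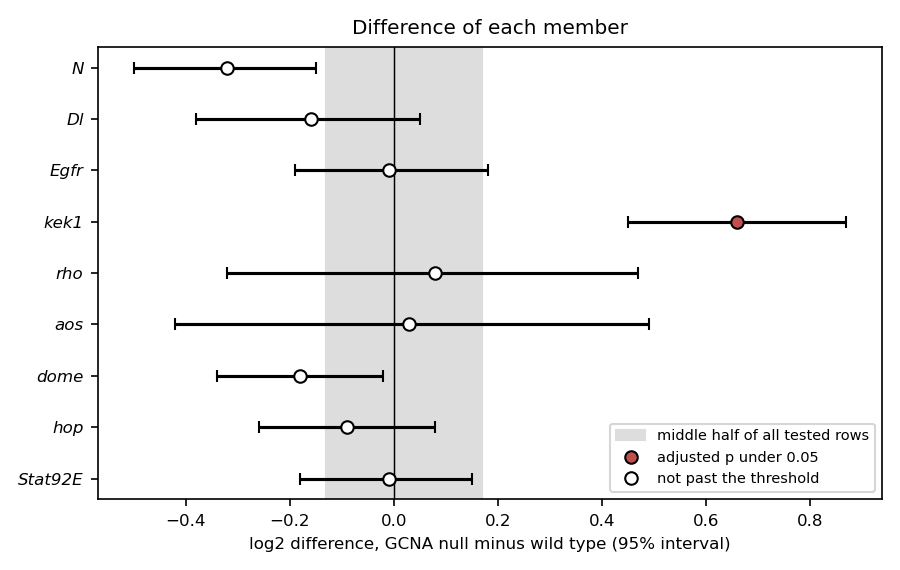
Log2 difference of each of the 9 genes, GCNA null minus wild type, with its 95% interval from limma (horizontal axis); the filled point passed the adjusted p, and the grey band runs from the first to the third quartile of all tested rows. kek1 at 0.66 stands alone on the right, N at -0.32 lies lowest, and Egfr and Stat92E are at -0.01.

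Transcripts of the core of the JAK/STAT pathway were abundant in both groups and did not pass the test. dome, the receptor Domeless, is X-linked at 19676061 to 19683518 (minus strand), with no overlapping gene and 17.8 Mb from Gcna. It had 7114.5, 7096 and 7464 normalized counts in GCNA null libraries and 8253, 7812 and 8728 in the wild type libraries. All GCNA null libraries were below all wild type libraries. The log2 difference was -0.18 (95% interval -0.34 to -0.02), but the limma adjusted p was 0.17. The germline markers, 8 of 8 in the table and none at 0, had sums of 193352, 191695 and 186610 in the GCNA null libraries and 198620 to 229066 in the wild type libraries. Singly, vas, BicD and otu had each GCNA null library below each wild type library, and nos, osk, aub, orb and bam overlapped. None of these 8 genes passed, and their part in the values of dome and N was not tested.

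hop encodes the Janus kinase Hopscotch and is X-linked at 11360930 to 11368098 (minus strand), 9.50 Mb from Gcna. It had 5515, 5435 and 5728 normalized counts in GCNA null libraries and 6099.7, 5532.5 and 6263 in the wild type libraries, with overlapping groups (log2 difference -0.09, 95% interval -0.26 to 0.08, limma adjusted p = 0.49). Stat92E, the transcription factor, lies on 3R at 20535323 to 20552311 (minus strand). Neither gene has an overlapping neighbour. Stat92E had 14752, 14827 and 13823 normalized counts in GCNA null libraries and 14877, 13723 and 14761 in the wild type libraries. The ranges nearly coincided (log2 difference -0.01, 95% interval -0.18 to 0.15, limma adjusted p = 0.92).

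Of the 15 other JAK/STAT genes all were in the table and 14 were tested, and none passed with limma, which called 6.37% of all rows. On the recovered reads edgeR and limma-voom called none of them and DESeq2 called 1 higher (12.8% of all rows called), and 1 was higher with 6 separate samples (16.6% of all rows called). In limma, 1 of the 14 had a p under 0.05 before adjustment, as did 2341 of the 10132 rows. The median of their log2 differences was 0.07. The ligand genes, which are known from the polar cells, were scarce. upd1, listed as os, had 77.1, 83.6 and 60.4 normalized counts in GCNA null libraries and 44.9, 51.8 and 62.1 in the wild type libraries. upd3 had 23.0, 18.9 and 25.2 in the GCNA null libraries and 14.8 to 16.3 in the wild type libraries. The log2 differences were 0.40 and 0.55, with 95% intervals from -0.21 to 1.02 and from -0.19 to 1.29.

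Socs36E, a suppressor of cytokine signalling that Stat92E itself turns on and that also limits EGFR, had 743, 798 and 539.5 normalized counts in GCNA null libraries and 419, 443 and 486 in the wild type libraries. The groups did not overlap and replicates 1 and 2 of GCNA null were highest. The log2 difference of 0.52 (95% interval 0.12 to 0.92) had a limma adjusted p of 0.13. Socs36E was the gene of this list called higher by DESeq2 and with 6 separate samples, fits that called 12.8% and 16.6% of all rows. It was also called higher when GCNA null replicate 3 was left out. The 2 most abundant other genes of the list were Su(var)2-10, the PIAS inhibitor of STAT, with a log2 difference of -0.02, and Ptp61F, a phosphatase that acts on Hop and Stat92E, with 0.03. Targets and effectors in follicle and border cells had log2 differences of -0.17 (slbo, the C/EBP factor of border cells), 0.20 (apt), -0.15 (zfh1), 0.37 (chinmo) and 0.10 (eya).

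**Figure D5:**
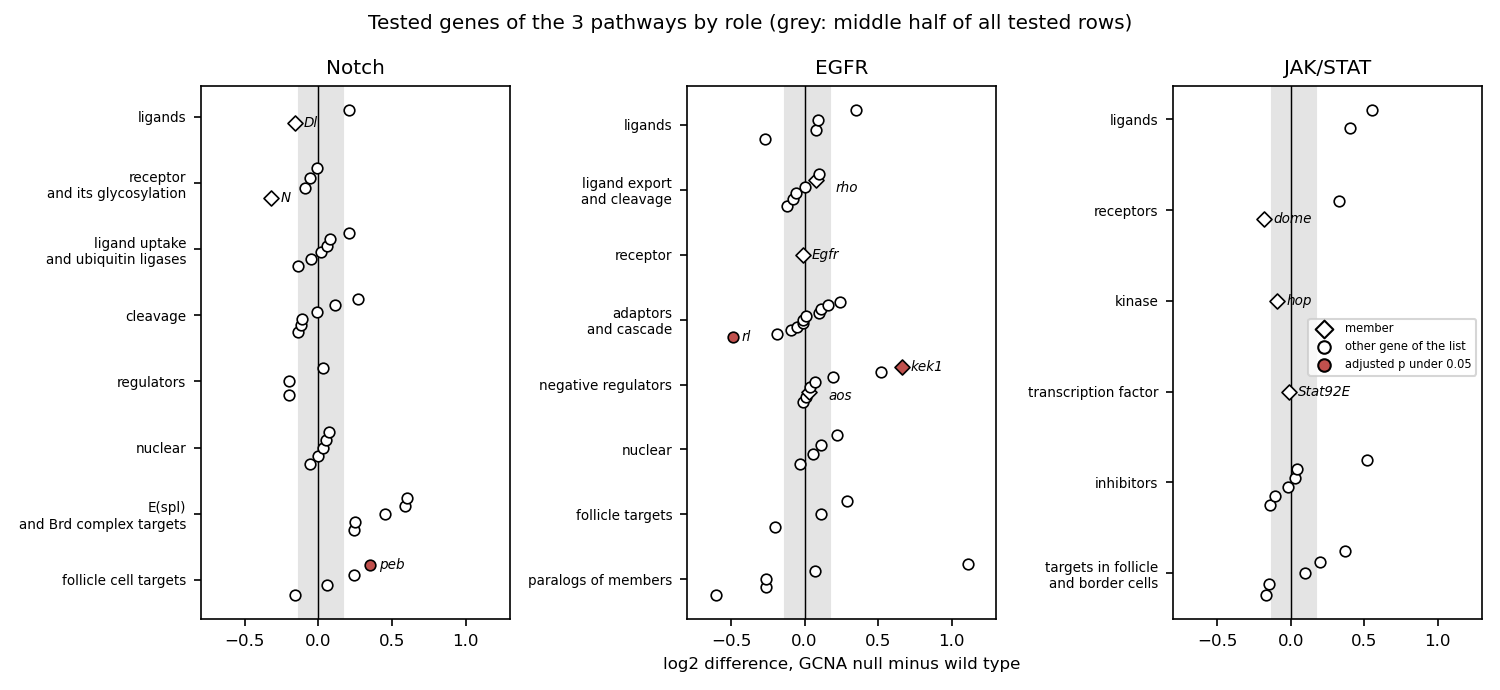
Log2 difference, GCNA null minus wild type (horizontal axis), of each tested gene of the 3 pathways, one panel a pathway and one line a role; diamonds are the 9 genes, circles the other genes of each list, filled symbols passed the adjusted p, and the grey band runs from the first to the third quartile of all tested rows. kek1 and peb (0.35) on the right and rl (-0.49) on the left are filled.

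Taken once each, 94 other genes of the 3 lists were in the table, 84 were tested, and 1 was higher (peb) and 1 lower (rl). This is 2.38%, where 6.37% of all rows passed. In 24 of the 84 the groups did not overlap, where 38.9% of all tested rows showed this.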

How the data were processed

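Ovary RNA of 3 GCNA null and 3 wild type libraries was read from the deposited table. The submitters' processing notes name STAR 2.5, CASAVA 1.8.2, the build dm6 and DESeq2. The read counter, its strand setting and its annotation were not given in the sources used here. As deposited, the values are a signal, the reads of a row over a size factor of its library, which their steps show. All were whole multiples of 1 step per library (100% within 1e-06), so whole reads could be recovered. Members and lists were chosen with earlier results of these data known. Coordinates and exon lengths come from Ensembl BDGP6 (Dl is named Delta there), and 6 listed symbols were matched through older symbols.

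Rows that reached 10 normalized counts in 3 or more of the 6 libraries were tested with limma 3.58.1 (R 4.3.3; mean-variance trend) on log2(normalized count + 1), with no block, over 5 samples; this scale understates changes of scarce RNAs. Calls are at a Benjamini-Hochberg adjusted p under 0.05. The recovered reads were tested with edgeR 4.0.16, DESeq2 1.42.0 and limma-voom. The scripts were tested on simulated data. Genes named are the 9 members, listed genes past the test (up to 6 a direction) or the 2 most abundant where none passed, and the 3 rows most like each receptor. Other genes were chosen after their values were seen. Groups follow the sample titles.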

Additional observations from a re-analysis of the deposited data

How the results depend on the processing

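The 12 settings that kept all libraries were 2 other pseudocounts, 2 other filters, 2 scalings, robust empirical Bayes, 6 separate samples with and without a replicate block, and 3 tests on recovered reads. No named gene changed sign past the threshold in any setting. Over all rows 431 were higher and 214 lower. With 6 separate samples these were 935 and 749, with the replicate block 640 and 477 (of these, 640 was under 1.5 times the main count), with DESeq2 755 and 542. Leaving out 1 library gave 222 to 426 higher and 67 to 277 lower (222 to 270 and 67 to 98 without wild type replicate 1, 2 or 3), and leaving out GCNA null replicates 1 and 2 together gave 94 and 52. Of the 9 genes, 1 was higher and none lower. The lower count was 1 (N) with pseudocount 5, robust empirical Bayes, the replicate block and DESeq2, and 2 with 6 separate samples. Leaving out 1 library gave 1 higher in each case and 0 to 1 lower. With GCNA null replicates 1 and 2 both left out the higher count was 0. Of the other pathway genes, 1 was higher and 1 lower. With 6 separate samples 3 and 6 were called, with DESeq2 2 and 5, and with the replicate block 2 lower. With quantile normalization 0 were lower. Leaving out 1 library gave 0 to 3 higher and 0 to 1 lower, and without replicates 1 and 2 of GCNA null there were 0 of both. Fits with fewer samples have fewer degrees of freedom; otherwise the cause was not tested. Same-numbered libraries had correlations of their deviations of -0.176, 0.073 and -0.094. GCNA null replicates 1 and 2 are near-copies with like deviations, so these values cannot show whether the numbers pair the samples. Of the 9 genes, rho had the fewest reads (138 in its lowest library), and counting error was up to 8.51% of its value. A fit with 1 GCNA null sample takes its spread from the wild type samples alone. The planned description of promoter motifs was not run.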

Other observations

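The rows whose values over the 6 libraries ran most like those of a receptor were looked up among 8494 tested rows with a mean of at least 50 normalized counts. GCNA null replicates 1 and 2 are near-copies and many rows reach high values, so these are descriptions. For N, the closest were SmB, CG18809 and tam, with Pearson's r of 0.9982, 0.996 and 0.9947, and 157 rows had an r over 0.95. For dome they were vas, CG14231 and Glg1, with 0.9968, 0.9967 and 0.995, and 238 rows were over 0.95. For Egfr they were Irp-1A, PNUTS and ea, with 0.9857, 0.981 and 0.9726, and 17 rows were over 0.95.

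The rhomboid family beside rho did not pass the test. stet had 4457 ± 139 normalized counts in GCNA null and 4657 ± 282 in wild type ovaries. rho-4 had 2808 ± 202 in GCNA null and 2963 ± 91.5 in wild type ovaries (SD, n = 2 and 3). ru was under the filter, at 6.3 to 8.1 normalized counts in the GCNA null and 1.1 to 10.9 in the wild type libraries. rho-5 had 41.4, 63.1 and 80.5 in the GCNA null libraries and 101.9, 95.2 and 100.3 in the wild type libraries, a log2 difference of -0.60 (limma adjusted p = 0.20). rho-7 had 1666.5, 1645 and 1927.6 in the GCNA null libraries and 2023.6, 2222.3 and 2183.1 in the wild type libraries. Its log2 difference was -0.26 (95% interval -0.47 to -0.05, limma adjusted p = 0.14). The groups of rho-5 and rho-7 did not overlap, and 19.3% of all tested rows were separated with GCNA null below. Of the exon length of rho-7, 56.8% overlaps CG34231 on the other strand. Its reads could not be told apart from those of rho-7 if the counting ignored strand.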
